A study of Mus musculus with 11 samples.

Results

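The Serpina3 genes of the mouse form a family of serine protease inhibitors (serpins) that lies as 1 cluster on chromosome 12. The family members described here were 5 listed genes, Serpina3f, Serpina3g, Serpina3n, Serpina3m and Serpina3c. Their probes were found through the RefSeq accession that the array files give for each probe, and each probe was kept separate. Of the 5 genes, 4 matched a probe, with 5 probes in all among the 55681 different probes of the array, and the array names 20145 genes in all. Serpina3g matched none, because no probe carries an accession that the gene table lists for it. A probe whose accession is missing from the table may still measure it, so the absence of a match does not show that the array lacks Serpina3g. Probe A_51_P326191, described under Other observations, is one whose accession is missing. The genes were chosen by an earlier result from these arrays: a Serpina3f probe was the 1 probe called in the luminal comparison of the hairpins. Values from that comparison are therefore given as a description, with no test.

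A serpin traps its protease: the protease cuts an exposed reactive loop, the serpin refolds, and the enzyme is left bound and inactive. Humans have a single gene of this kind, SERPINA3, which encodes alpha-1-antichymotrypsin, whereas the mouse has a cluster of copies whose reactive loops differ. Serpina3n is the secreted member most often compared with the human protein and is known to inhibit granzyme B and neutrophil proteases. Serpina3g is known as an intracellular inhibitor of lysosomal cathepsins in lymphocytes, and Serpina3f is a close relative of it. Serpina3c and Serpina3m are best known from liver. Several members respond to interleukin 6 through Stat3, to glucocorticoids or to interferon gamma.

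RNA came from mouse mammary outgrowths grown from primary mammary epithelial cells that were transduced with lentivirus and then injected in Matrigel. The virus carried a hairpin against Ror2 (shROR2), a receptor of Wnt ligands, or a control hairpin against luciferase (shLUC), so all groups share transduction and a hairpin. Luminal and basal cells were sorted from the outgrowths. The control hairpin had 3 luminal and 3 basal arrays, and the Ror2 hairpin 2 luminal and 3 basal arrays. The labels call the samples biological triplicates, and strain, age, the promoter that drives the hairpin and the outgrowth behind each sample are not given in the sources used here. Where samples shared an outgrowth or a pool of animals, the p-values measure the spread between these samples only.

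On each array 52.8% to 59.5% of probes lay well above background and 0 spots were saturated. Arrays of 1 group correlated at 0.975 to 0.982, except in basal shROR2 at 0.938 to 0.95, where the median SD of a probe was 0.353 against 0.144 to 0.19 (log2) in the other groups. The labelled cell types were checked against markers: 10 of 11 basal markers were higher in basal cells, and 13 of 14 luminal markers were lower there in shLUC and 14 of 14 in shROR2. Of these basal markers, Lgr5 and Cdh3 were not well above background in either luminal group and entered the fit through basal arrays alone. The exception among basal markers was the probe of Trp63, with a log2 difference of 0.15 ± 0.10 (SE, limma, adjusted p = 0.285) in shLUC. Over all probes tested, 14.5% were called higher and 12.8% lower in basal cells in shLUC, and 11.2% and 12.3% in shROR2. The targeted gene, Ror2, had 1 probe, which lay well above background on 1 of 11 arrays. Its signal was 10.1 to 12.1 in basal shLUC and 3.03 to 16.8 in basal shROR2, so that at this signal a lower Ror2 level was not detectable.

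The promoters of 4 members are shown because they cover the member noticed in luminal cells (Serpina3f), its relative without a matched probe (Serpina3g), the member whose probe differed most between basal and luminal cells (Serpina3n) and one that stayed dim on every array (Serpina3c). Each is the run of 250 bases before the annotated RefSeq start on build GRCm38.p6. Serpina3f lies at chr12:104214294-104214543 (plus strand, the upstream of 2 listed starts), Serpina3g at chr12:104235897-104236146 (plus strand), Serpina3n at chr12:104406458-104406707 (plus strand) and Serpina3c at chr12:104153873-104154122 (minus strand). Capitals mark a match to TTCNNNGAA, the palindrome that STAT factors are known to bind, and Serpina3m has no entry in the promoter table.
Serpina3f: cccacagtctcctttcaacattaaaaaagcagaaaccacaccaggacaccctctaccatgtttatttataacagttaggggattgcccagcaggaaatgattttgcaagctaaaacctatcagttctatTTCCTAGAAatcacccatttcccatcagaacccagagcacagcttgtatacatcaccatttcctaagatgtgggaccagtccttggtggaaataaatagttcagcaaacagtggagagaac
Serpina3g: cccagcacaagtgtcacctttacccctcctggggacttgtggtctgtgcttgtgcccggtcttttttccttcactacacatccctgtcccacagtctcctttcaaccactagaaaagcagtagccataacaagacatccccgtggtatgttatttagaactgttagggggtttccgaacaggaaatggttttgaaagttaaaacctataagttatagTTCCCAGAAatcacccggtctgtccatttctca
Serpina3n: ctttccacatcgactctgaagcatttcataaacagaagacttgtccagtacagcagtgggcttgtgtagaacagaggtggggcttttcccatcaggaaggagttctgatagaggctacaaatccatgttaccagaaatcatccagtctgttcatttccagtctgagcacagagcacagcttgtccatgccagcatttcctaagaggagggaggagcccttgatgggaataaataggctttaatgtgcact
Serpina3c: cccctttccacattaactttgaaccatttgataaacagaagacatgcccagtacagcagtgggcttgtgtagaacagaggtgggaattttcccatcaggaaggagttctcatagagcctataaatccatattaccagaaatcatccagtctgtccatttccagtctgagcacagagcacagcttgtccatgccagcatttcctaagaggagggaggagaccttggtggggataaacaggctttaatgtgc

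The palindrome was found in Serpina3f as TTCCTAGAA, 121 bases before the start, and in Serpina3g as TTCCCAGAA, 33 bases before it. The neighbouring gene Serpina3i holds TTCCCAGAA 102 bases before its start. It has no match in the windows of Serpina3n and Serpina3c. Over all promoter windows of the table, 2306 of 32851 (7.02%) hold the palindrome, which reads the same on both strands. A hexamer of the glucocorticoid receptor element, AGAACA, searched on both strands, was found in the Serpina3n and Serpina3c windows, 183 and 180 bases before the start, and 164 bases before that of Serpina3i. It was also found in the windows of Serpina3a, Serpina3b and Serpina3j and, for Serpina3f, in the window of its downstream start, 94 bases before it. It occurs in 16.1% of all windows and the 2 motifs share no bases in these windows. The Serpina3c and Serpina3n windows were 90.5% identical over their alignment, against 62.5% for Serpina3f and Serpina3n and 64.8% for Serpina3f and Serpina3i. A match describes letters and does not show binding.

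Serpina3f and Serpina3n were high in basal cells and low or near background in luminal cells of both hairpins. Signals are Agilent processed signals, in arbitrary units after background subtraction within the array. Differences are log2 differences after each array was scaled to its 75th percentile. A gene's probes cannot be compared in level with each other. Because the copies of the cluster are similar in sequence and no probe sequences were used here, how far a probe also binds a neighbouring copy is uncertain for every probe below.

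The Serpina3f probe A_55_P2142226 was well above background on all 11 arrays. Its processed signal read 35.0, 33.9 and 40.9 on the luminal arrays with shLUC, and the luminal arrays with shROR2 read 127 and 113. On the basal arrays it was 758, 773 and 769 with shLUC, and 770, 999 and 877 with shROR2. All 6 basal arrays lay above all 5 luminal arrays, and no luminal shROR2 array overlapped luminal shLUC. Scaled levels averaged -1.66 ± 0.13 (SD, n = 3), 0.02 ± 0.07 (n = 2), 2.67 ± 0.10 (n = 3) and 2.95 ± 0.18 (n = 3) in that order of groups.

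Basal cells exceeded luminal cells by 4.33 ± 0.13 (SE) in shLUC, 20.1-fold (limma, adjusted p = 7.4e-08). In shROR2 they did so by 2.92 ± 0.15, 7.59-fold (limma, adjusted p = 2.16e-06). Among all 33611 probes tested, 14.5% were called higher in basal cells in shLUC and 11.2% in shROR2, and 24.6% and 20.2% had all basal arrays above all luminal arrays of that hairpin. Those 2 comparisons share no array with each other, but each shares arrays with the luminal comparison through which the gene was noticed.

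The other Serpina3f probe, A_55_P2104975, was dimmer. Luminal arrays gave 7.48, 11 and 9.84 with shLUC, and 17.7 and 11.5 with shROR2, none of them well above background. Basal arrays gave 66.3, 107 and 71.6 with shLUC, and 87.5, 78.0 and 89.7 with shROR2. The basal arrays were again all above the luminal arrays. The probe passed the filter on dim probes (well above background on at least 3 of 11 arrays) through the basal arrays alone. For a group not above background only a bound can be given: the basal mean was set against the mean of the higher of each luminal array's own value and its lowest signal well above background, which was 10.8 to 14.2 over the arrays. Basal cells were at least 5.76-fold higher in shLUC (limma, adjusted p = 8.49e-06) and at least 5.55-fold higher in shROR2 (adjusted p = 6.15e-05). These bounds hold for the processed signals only. With normexp background correction the log2 difference of this probe was 0.84 in shLUC and 0.87 in shROR2. Fitted to the authors' deposited table it was 0.80 and 0.81. All 4 values are smaller than the log2 of these bounds.

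Serpina3n, the secreted granzyme B inhibitor, had 1 probe, A_51_P159453. Its luminal signals were 5.68, 6.71 and 8.41 with shLUC, and 13.7 and 11.1 with shROR2, none well above background. Its basal signals were 867, 911 and 899 with shLUC, and 756, 933 and 726 with shROR2. Serpina3n was thus measured in basal cells only, where both hairpins overlapped. It was at least 64.5-fold higher in basal than in luminal cells with shLUC (limma, adjusted p = 1.51e-08) and at least 59.5-fold with shROR2 (adjusted p = 1.17e-07). These bounds, too, hold for the processed signals only. With normexp and in the authors' table the log2 differences of Serpina3n were smaller than the log2 of these bounds. The Serpina3n probe and A_55_P2104975 passed the filter on dim probes through the basal arrays alone, where they are high, and no count over the members is drawn from their calls. In the fit with no such filter, Serpina3n had an adjusted p of 4.67e-08 in shLUC and 3.28e-07 in shROR2 (limma).

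The size of these differences changed with the processing, and their calls did not. With normexp background correction of the raw signals, the Serpina3f difference (A_55_P2142226) was 3.04 in shLUC, and that of Serpina3n was 3.80. Fitted to the authors' deposited table, they were 2.85 and 3.59 in shLUC and 2.30 and 3.48 in shROR2. All were called in every alternative that was run, Serpina3n against a dim luminal side.

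**Figure D1:**
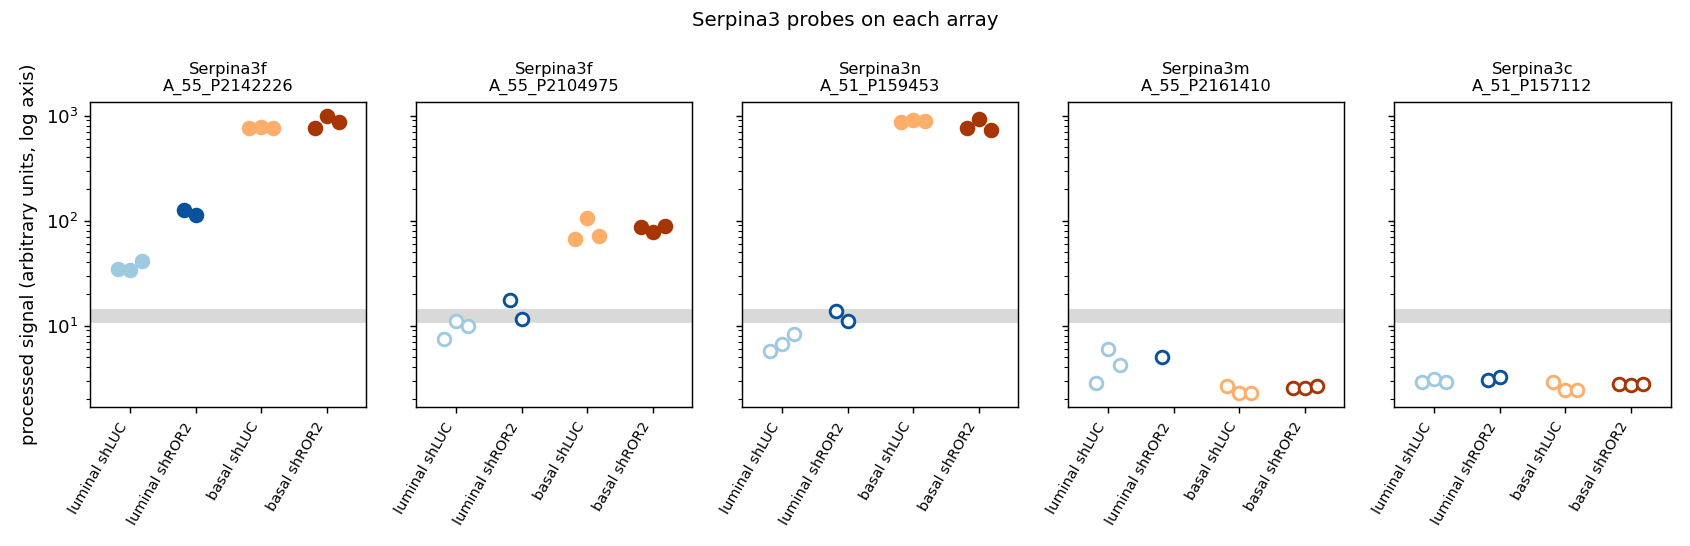
Processed signal (arbitrary units, log axis) of each Serpina3 probe on every array, by group; each point is 1 array, filled where the probe was well above background and open where it was not. The grey band spans the lowest signal well above background on each array, 10.8 to 14.2. Serpina3f and Serpina3n sit highest on the 6 basal arrays, while Serpina3m and Serpina3c are below the band on every array shown; the marked Serpina3m spot is left out.

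Serpina3m and Serpina3c, the members best known from liver, were not well above background on any array used. The Serpina3c probe A_51_P157112 lay between 2.42 and 3.21 on all arrays. The Serpina3m probe A_55_P2161410 gave 2.83, 5.94 and 4.26 on luminal arrays with shLUC, 5.02 on 1 luminal array with shROR2, and 2.26 to 2.68 on the basal arrays. Its spot on the other luminal shROR2 array (70.9) was marked by the scanner as non-uniform and was left out, so that group rests on 1 array. By exact 2-sided permutation of the arrays, Serpina3m differed by -0.85 between basal and luminal cells in shLUC (p = 0.1, the smallest that 3 against 3 arrays allow) and Serpina3c by -0.26 (p = 0.2). No fold is given for either, since both sides were dim. Hepatocyte markers were mostly dim as well: Alb, Apoa1, Apoh, Ahsg and Cyp3a11 were not well above background in any group.

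In basal cells 0 of the 3 member probes past the filter were called between the hairpins by limma, and 0 had an unadjusted p under 0.05. The Serpina3f probe A_55_P2142226 was 0.28 ± 0.13 higher in shROR2 (limma, adjusted p = 0.343). After scaling, its lowest shROR2 array (2.76) lay just above its highest shLUC array (2.74), whereas the unscaled signals overlapped (770 against 773). Of all probes, 6.58% had arrays that did not overlap in this direction, and 0.887% were called in either direction. The second Serpina3f probe differed by 0.17 ± 0.21 (adjusted p = 0.736) and Serpina3n by -0.08 ± 0.16 (adjusted p = 0.861). Serpina3m and Serpina3c differed by 0.17 (exact permutation p = 0.3) and 0.16 (exact permutation p = 0.4). The arrays of both basal groups overlapped for A_55_P2104975 and Serpina3n. On the same arrays 7 of 13 leukocyte markers tested rose with shROR2, among them Cd74, the invariant chain of MHC class II (1.27 ± 0.13, adjusted p = 0.011, called in 19 of 22 alternatives). All 7 calls were lost without basal shLUC replicate 1 and with only the groups compared, and without basal shLUC replicate 2 there were 2. C1qa and C1qb, subunits of complement C1q, were called in 9 and 10 of 22 alternatives. With shROR2, 1 of 9 endothelial markers, Plvap, and 1 of 4 adipocyte markers, Fabp4, rose too (called in 6 and 15 of 22). Whether these cells bear on the Serpina3 values was not tested.

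In luminal cells the Serpina3f probe A_55_P2142226 was higher with shROR2 than with shLUC, which is how the gene was noticed. The difference was 1.68 ± 0.15, 3.21-fold, and it was 1.76 among the arrays of slide 1 and 1.62 among those of slide 2. One probe in all, 0.00298% of those tested, was called in this comparison. In the authors' deposited table the same difference was 0.84. The other Serpina3f probe and Serpina3n were not well above background in either luminal group, so no fold is given for them. Their signals on the luminal shROR2 arrays (17.7 and 11.5, 13.7 and 11.1) were all above those on the luminal shLUC arrays. Of all probes, 14.9% had arrays that did not overlap in this direction. Whether the hairpin difference of Serpina3f was larger in luminal than in basal cells was not tested, since the luminal value chose the gene.

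**Figure D2:**
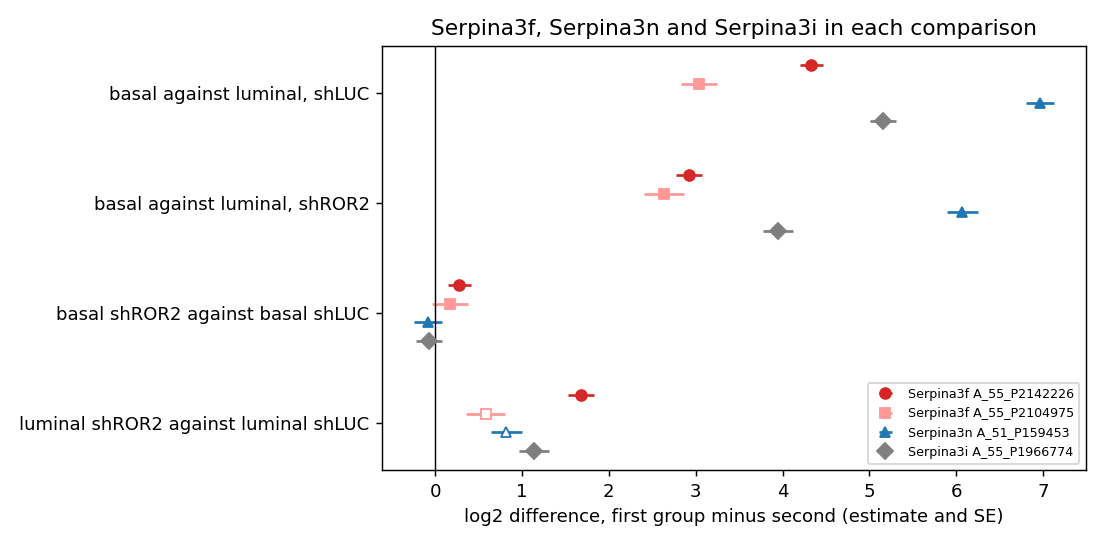
Log2 difference (first group minus second; points are limma estimates, bars their SE) for both Serpina3f probes, Serpina3n and the brighter probe of the neighbour Serpina3i in the 4 comparisons. Open symbols mark probes not well above background in both groups, and for Serpina3n and A_55_P2104975 the luminal side was dim in all comparisons. The basal-luminal differences are the largest, the basal hairpin differences lie near 0, and the luminal hairpin differences are a description.

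Other transcripts moved with Serpina3f in the luminal arrays. The summed level of 10 fibroblast markers, in units of each array's 75th percentile, ran from 6.73 to 6.85 with shLUC and from 11.2 to 11.3 with shROR2 in luminal cells, against 59.7 to 65.6 and 56.9 to 71.4 in basal cells. Dcn made up most of the luminal sums, with mean scaled log2 levels of 1.88 with shLUC and 2.77 with shROR2. Of the 9 fibroblast markers tested, 6 were higher with shROR2 in luminal cells (median 0.62), and so were 9 of 11 basal markers (median 0.13). Lum, Pdgfra, Pdgfrb and Dpt were not well above background in either luminal group. The summed level of 14 leukocyte markers was 97.5 to 100 with shLUC and 128 to 129 with shROR2 in luminal cells, with 65.1 to 69.7 and 103 to 112 in the basal groups. Endothelial markers (9 genes) summed to 12.1 to 12.7 and 15.4 to 15.7 in the luminal groups, and to 23.9 to 29.4 and 45.6 to 52.5 in the basal groups. Adipocyte markers (7 genes) summed to 5.70 to 7.18 and 11.1 to 13.1, and to 22.8 to 25.8 and 44.6 to 54.7. Adipoq, Cfd, Lep and Retn were not well above background in either luminal group. In basal shROR2 Adipoq, Cfd and Lep were dim, and in basal shLUC Lep. This sum was mostly Fabp4, with mean scaled log2 levels of 2.55 and 3.53 in the luminal groups and 4.55 and 5.56 in the basal groups. Basal markers summed to 116 to 123 and 122 to 129 in luminal cells, against 1690 to 1920 and 1630 to 1700 in basal cells, and Lgr5 and Cdh3 were not well above background in either luminal group. Hepatocyte markers (8 genes, mostly dim) summed to 13.7 to 15.0 with shLUC and 15.8 to 17.2 with shROR2 in luminal cells. Luminal shROR2 lay above luminal shLUC without overlap in the sums of fibroblast, leukocyte, endothelial, adipocyte and hepatocyte markers. The sums of basal and of luminal markers overlapped. Among single probes, 14.9% had arrays that did not overlap in this direction. No gene of these lists was called between the luminal groups. The part of other cells in the Serpina3f difference was not tested, and in sorted bulk RNA a change in the share of a cell type and a change in RNA per cell cannot be told apart.

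The luminal difference can be set against the basal level of the same probe. For Serpina3f the luminal level was 4.98% of the basal level in shLUC and 13.1% in shROR2, and the luminal hairpin difference came to 11% of the basal shLUC level. For Serpina3i the corresponding difference was 3.34%, and for Serpina3n, dim in luminal cells, 0.605%. Over the 11 basal markers it ranged from -0.126% to 3.56% with a median of 0.12%. Over the 9 fibroblast markers past the filter it ranged from -2.71% to 28.5% with a median of 3.24%. Dcn, which encodes the matrix proteoglycan decorin, had 28.5%, and the collagen genes Col3a1 and Col1a2 had 5.32% and 3.51%. The other Serpina3f probe, A_55_P2104975, had 6.17%. Because this difference chose Serpina3f, its place among the markers is a description and supports nothing. The values of A_55_P2104975, Lum, Pdgfra, Pdgfrb, Lgr5 and Cdh3, like that of Serpina3n, rest on luminal signals that were not well above background.

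**Figure D3:**
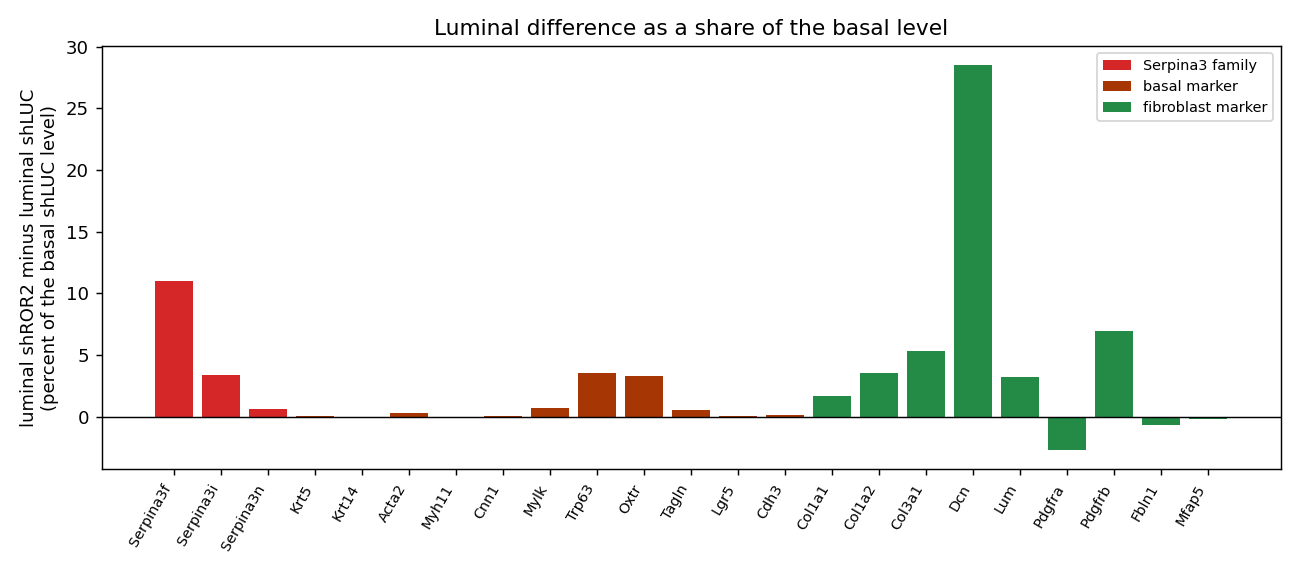
Luminal shROR2 minus luminal shLUC level as a percent of the basal shLUC level (bars, 1 probe per gene, from group means on the linear scale) for Serpina3f (A_55_P2142226, chosen by this difference), Serpina3i (its brighter probe) and Serpina3n, 11 basal markers and 9 fibroblast markers. Serpina3f reaches 11%, the basal markers stay at or below 3.56%, and Dcn reaches 28.5%.

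The rest of the cluster was read in chromosomal order. It holds 14 listed genes, 10 of them protein-coding, and 10 genes have a matched probe. Serpina3i, which lies between Serpina3f and Serpina3n, had a like pattern on its brighter probe, A_55_P1966774. Its luminal signals were 21.4, 15.7 and 18.5 with shLUC, and 44.4 and 38.5 with shROR2. Its basal signals were 639, 751 and 670 with shLUC, and 610, 724 and 530 with shROR2. Basal cells were again above luminal cells on every array, by 5.16 ± 0.15 or 35.7-fold in shLUC (limma, adjusted p = 7.4e-08) and by 3.95 ± 0.17 or 15.5-fold in shROR2 (adjusted p = 1.07e-06). The basal hairpin difference was -0.07 ± 0.15 (adjusted p = 0.866), and the luminal one 1.14 ± 0.17, 2.2-fold. The other Serpina3i probe, A_55_P2142232, was dim in luminal cells and missed the threshold in shLUC (1.90 ± 0.62, limma, adjusted p = 0.0517). In shROR2 it differed by 1.16 ± 0.70 (adjusted p = 0.274), with overlapping arrays and 1 of 3 basal arrays well above background. Its luminal hairpin difference, dim in both groups, was -0.16 ± 0.70. The 2 probes thus disagree in their calls and in the sign of the luminal difference.

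Serpina3b was well above background on all arrays, at 177 to 276 in luminal and 319 to 451 in basal cells. It was higher in basal cells by 0.67 ± 0.18 in shLUC (limma, adjusted p = 0.0231) and by 0.84 ± 0.20 in shROR2 (adjusted p = 0.0156), calls that were made in 18 and 20 of 22 alternatives. Its luminal hairpin difference was -0.16 ± 0.20. The transcribed pseudogene Serpina3h, named after its values were seen, lay at 79.2 to 152 in every group and was called in no comparison tested (basal against luminal in shLUC 0.14 ± 0.19, adjusted p = 0.631). Serpina3a, Serpina3j and Serpina3k, the last known as a liver kallikrein inhibitor, were not well above background on any array.

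**Figure D4:**
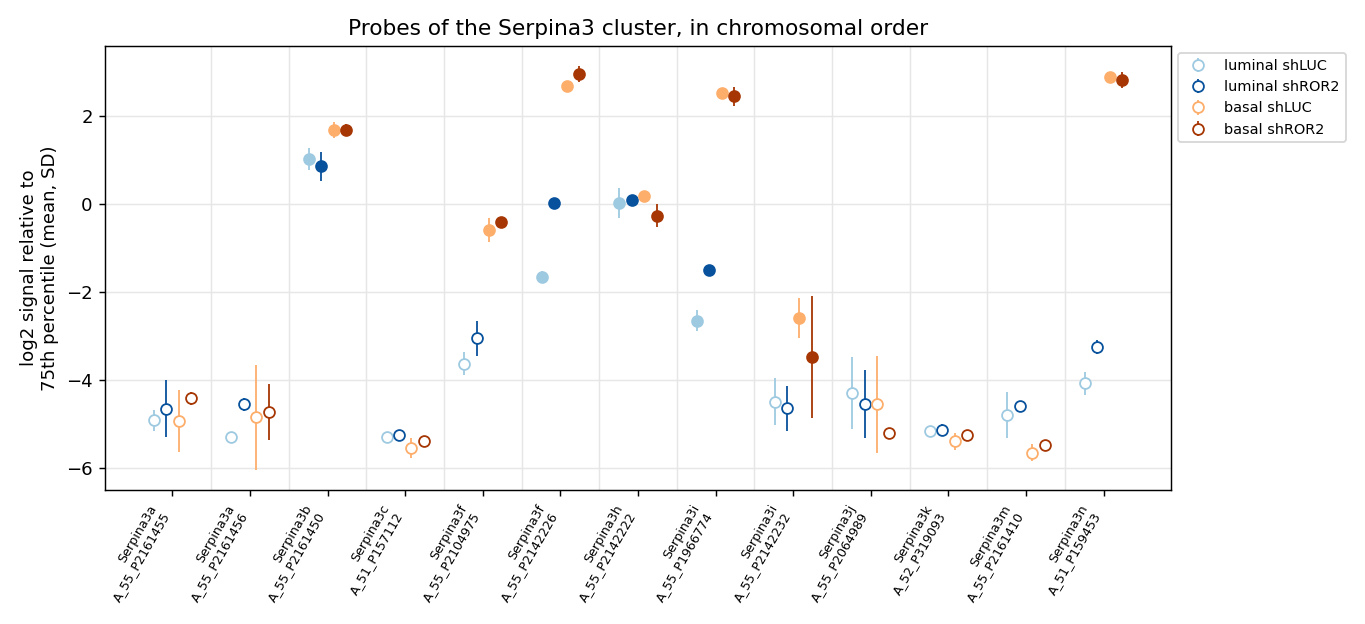
Scaled log2 signal (relative to the 75th percentile of the array; mean and SD of each group) for the probes of the Serpina3 cluster in chromosomal order, with open symbols where no array of the group was well above background. Serpina3f, Serpina3i and Serpina3n have basal means between 2.44 and 2.95 on their brighter probes, Serpina3b differs less, and Serpina3a, Serpina3c, Serpina3j, Serpina3k and Serpina3m are open in all groups.

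The family probes differed among themselves in profile. As a description of likeness, the root mean square difference of the log2 profiles over the 11 arrays, each centred on its mean, was 0.507 between Serpina3f and Serpina3i, 0.986 between Serpina3i and Serpina3n, and 1.43 between Serpina3f and Serpina3n. The 2 Serpina3f probes differed by 0.634, more than Serpina3f did from Serpina3i. Among named genes outside the family, the profiles most like Serpina3f were those of Trpm3 (0.253), Col3a1 (0.36), Col1a2 (0.369), Axl (0.383) and Timp3 (0.393). Those most like Serpina3n were Myl9, a myosin light chain of contractile cells (0.262), Spon2 (0.302), Il17b (0.306), Col14a1 (0.308) and Fbn1 (0.309). These ranks rest partly on background signal: Serpina3n, Trpm3, Spon2, Col14a1 and Fbn1 were well above background on 0 of 5 luminal arrays, and Il17b on 2. All points share the same 11 arrays.

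Other clade A serpins (secreted inhibitors and hormone carriers) were mostly dim, and 10 of 18 listed genes were tested. Over all probes, 14.5% were called higher and 12.8% lower in basal cells in shLUC, and 11.2% and 12.3% in shROR2. In shLUC 2 of the 10 were higher in basal cells, Serpina3i and Serpina3b, and 1 was lower, near those shares. The lower one was Serpina10, the protein Z-dependent inhibitor of coagulation, at -0.80 ± 0.11 (limma, adjusted p = 0.00079) and, in shROR2, -0.63 ± 0.13 (adjusted p = 0.00689). In shROR2 4 were higher and 2 lower: Serpina1a (1.48 ± 0.42, adjusted p = 0.0322) and Serpina1c (at least 2.31-fold, adjusted p = 0.0401), copies of the alpha-1-antitrypsin gene, joined the higher ones, and Serpina6, the corticosteroid carrier, was lower on its brighter probe (-0.47 ± 0.15, adjusted p = 0.0452). Of 22 alternatives, 15 called Serpina1a, 12 Serpina1c and 5 Serpina6, and without luminal shROR2 replicate 2 the list had 1 higher and 1 lower. In shLUC Serpina1a missed the threshold (1.15 ± 0.38, adjusted p = 0.0507), as did Serpina1c (adjusted p = 0.0713). Serpina1d, Serpina9 and Serpina11 were called in no comparison tested. Serpina1e was called on its dimmer probe only, in shLUC (at least 2.08-fold, adjusted p = 0.0195, called in 18 of 21 alternatives). This probe and that of Serpina1c were dim on all luminal arrays and passed the filter through basal arrays alone, where they are higher. The median over the list was 0.72 in shLUC and 0.42 in shROR2, where the medians over all probes were -0.05 and -0.08.

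Clade B serpins, which mostly act inside cells, had 13 tested members. In shLUC 7 were higher and 1 lower in basal cells (median 1.02), where 14.5% and 12.8% of all probes were, and in shROR2 5 were higher and 2 lower (median 0.61), against 11.2% and 12.3%. Without either luminal shROR2 array the shROR2 counts fell to 2 higher and 0 lower (limma, with 6 of 13 at an unadjusted p under 0.05). Serpinb11 had the largest difference, at least 35-fold in shLUC (limma, adjusted p = 1.42e-05). Serpinb2, known from macrophages and skin, was at least 3.35-fold higher in shLUC (adjusted p = 0.000433). Both bounds are for the processed signals. Serpinb11 and Serpinb2, counted among the 7, were dim on all luminal shLUC arrays. Serpinb2 was dim in luminal shROR2 too and passed the filter through basal arrays alone, where it is higher, so its part in the count is a description. Of 6 other extracellular serpins tested, 4 were higher and 0 lower in either hairpin (medians 3.01 and 2.69). In shLUC they included Serpinf1, which encodes pigment epithelium-derived factor (4.75 ± 0.25, adjusted p = 1.74e-06), and Serping1, the C1 inhibitor (3.17 ± 0.21, adjusted p = 6.74e-06). Between the hairpins in basal cells limma called 0 serpins of these 3 lists, and 1, 3 and 0 of the clade A, clade B and other extracellular ones had an unadjusted p under 0.05.

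A list of proteases, written from general knowledge, had 15 members tested, and whether Serpina3 proteins act on each of them was not tested. In shLUC 2 were higher and 6 lower in basal cells (median -0.83), and in shROR2 3 were higher and 5 lower (median -0.20). Of all probes, 14.5% were higher and 12.8% lower in shLUC, and 11.2% and 12.3% in shROR2. Without luminal shROR2 replicate 1 there were 3 lower in shROR2. The membrane proteases Prss8 (-3.06 ± 0.26, limma, adjusted p = 3.11e-05) and St14 (-2.42 ± 0.18, adjusted p = 1.38e-05) and the lysosomal Ctsh (-2.28 ± 0.17, adjusted p = 1.73e-05) were lower in basal cells of shLUC. Between the hairpins in basal cells 1 protease rose, Ctss, which encodes cathepsin S of antigen-presenting cells (1.57 ± 0.19, adjusted p = 0.0155, called in 17 of 22 alternatives but not without basal shLUC replicate 1 or 2), on the arrays where leukocyte markers rose too. The part of leukocytes in it was not tested.

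Genes known to respond to the signals that act on Serpina3 genes were read against the same shares of all probes, 14.5% higher and 12.8% lower in shLUC and 11.2% and 12.3% in shROR2. Of 25 genes of the Stat3, glucocorticoid and acute phase list tested, 10 were higher and 7 lower in basal cells in shLUC (median -0.02), and 9 and 6 in shROR2 (median 0.10). The acute phase genes Fgb, a fibrinogen chain (-5.03 ± 0.31, limma, adjusted p = 4.24e-06), and Hp, haptoglobin (-3.58 ± 0.20, adjusted p = 2.13e-06), were lower in basal cells, while Il6, the cytokine itself, was higher (2.79 ± 0.19, adjusted p = 7.67e-06). Of the 25, 0 were called between the hairpins in basal cells by limma, and 6 had an unadjusted p under 0.05. Of 20 interferon gamma response genes, 4 were higher and 3 lower in basal cells in shLUC (median 0.19), and 6 and 3 in shROR2 (median 0.09), so that in shLUC these counts lay near the shares of all probes. Ido1, which degrades tryptophan, was lower (-4.65 ± 0.34, adjusted p = 1.4e-05), and Socs1, a feedback inhibitor of cytokine receptors, was higher (2.63 ± 0.14, adjusted p = 2.12e-06). Between the hairpins in basal cells 1 of the 20 rose, Irf1 (0.73 ± 0.13, adjusted p = 0.0498), which 8 of 22 alternatives called. In luminal cells no gene of either list was called between the hairpins.

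The compartments that these differences contrast also differed in markers of other cells. In shLUC 9 of 9 fibroblast markers tested were higher in the basal than in the luminal fraction, and in shROR2 7 of 9, with medians of 3.81 and 3.52. Lum, Pdgfra and Pdgfrb, among those tested, were dim in both luminal groups and passed the filter through basal arrays alone. For them the filter favoured a higher basal level, so these counts are a description. Dpt, dim in both luminal groups, was not tested. Of the leukocyte markers 9 of 13 were lower in the basal fraction in shLUC and 4 of 13 in shROR2, which became 2 without either luminal shROR2 array. Endothelial markers were higher in the basal fraction for 6 of 9 in shLUC and 7 of 9 in shROR2, with medians of 2.15 and 2.02. Over all probes tested, 14.5% were called higher and 12.8% lower in the basal fraction in shLUC, and 11.2% and 12.3% in shROR2. Col1a2, a fibroblast transcript well above background on every luminal array, was higher by 3.91 ± 0.15 in the basal fraction in shLUC (limma, adjusted p = 2.82e-07). Which cells of the basal fraction gave the Serpina3f and Serpina3n signal was not tested.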

How the data were processed

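Sorted cells gave RNA (PicoPure kit) that was amplified (NuGEN Ovation Pico) and labelled with Cy3 for Agilent arrays of 1 colour, per the labels' protocols. The deposited scanner files hold intensity values background-subtracted within each array by Agilent Feature Extraction 11.0.1.1, per the file headers. The authors' deposited table holds linear intensity values whose medians were 88.8 to 89.3 on every array; its background handling and its normalization are not given in the sources used here.

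Each array has 62976 spots, 59305 of them not controls. Outlier spots were left out and spots of a probe averaged. A symbol was found for 26582 of 55681 probes through RefSeq accessions (GRCm38.p6 gene table). Log2 signals were scaled to the 75th percentile of the array (signals of 112 to 131). Probes well above background on at least 3 of 11 arrays, 33611 in all, entered a fit of 4 group means (limma 3.58.1, R 4.3.3), while 17 others lacked a value on some array and were dropped. P-values (2-sided) were Benjamini-Hochberg adjusted over all these probes and called under 0.05. For dim member probes the arrays were permuted exactly. The fit was tested on simulated data. Figures used matplotlib 3.10.9, and promoters were aligned with Biopython 1.88. The number of arrays limits the precision.

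The members and lists were chosen with earlier results of these data known. Named are all member probes, other clade A serpins past the filter, per pathway list and comparison up to 3 called genes with the largest change and no overlap, per marker list up to 3 genes by level, and 5 genes most like each member. Genes outside this rule are given where a result turned on them. A gene with several probes is represented by the one with the highest mean, members excepted. Alternatives were normexp (offset 50) on the median signal, since the mean signal was not used here, quantile and median scaling, the authors' table, 2 other filters, 1 probe per gene, slide and replicate blocks, array weights, only the groups compared, and leaving out each array. Values of 2 single genes that this rule and the marker lists would name are not reported here.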

Additional observations from a re-analysis of the deposited data

How the results depend on the processing

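In the 3 tested comparisons the differences of Serpina3f and Serpina3n kept their direction and their side of the threshold in every alternative run, 22 for A_55_P2142226 and Serpina3n and 21 for A_55_P2104975, which is not in the fit with 1 probe per gene. Serpina3n and A_55_P2104975 passed the filter through basal arrays alone, so for their basal-luminal calls this number is a description and no further support. Over them the basal-luminal difference in shLUC ranged from 2.85 to 4.4 for Serpina3f (A_55_P2142226) and from 3.59 to 7.10 for Serpina3n, and in shROR2 from 2.30 to 3.02 and from 3.48 to 6.18, with the lowest values from the authors' table. For A_55_P2104975 it ranged from 0.80 to 3.15 and from 0.81 to 2.91, again lowest in the authors' table. Without 1 array each, 0 Serpina3 probes were called in the basal hairpin comparison, and A_55_P2142226 stayed called in both basal-luminal comparisons. In the luminal comparison, described without a test, Serpina3f (A_55_P2142226) had 0.89 with normexp and 0.84 in the authors' table, against 1.68, and Serpina3n 0.07 and 0.09, against 0.82. The dim probe A_55_P2104975 turned from 0.58 to -0.01094 with normexp and was 0.01 in the authors' table. The cause was not tested.

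The counts over all probes moved more. In the basal hairpin comparison 298 probes were called, against 757 with normexp, 614 in the authors' table, 150 with no filter, 145 with the slide as a block, 33 with array weights and 0 with only the groups compared (limma; 3588 at an unadjusted p under 0.05, against 5346). Leaving out 1 array gave 20 (without basal shLUC replicate 1) to 999 (without basal shROR2 replicate 1), and each of the 11 moved the count by over 1.5 times: 82 to 98 without a luminal array, 34 and 82 without basal shLUC replicates 2 and 3, and 475 and 460 without basal shROR2 replicates 2 and 3. In the luminal comparison 1 was called, against 24 with normexp, 25 in the authors' table, 4 with quantile normalization, 3 with no filter, 6 with the stricter filter, 63 with array weights, and 0 with median scaling, the slide block or only the groups compared (1746, 1895 and 3338 at an unadjusted p under 0.05), and 0 to 8 without 1 array. In basal against luminal cells with shROR2, 7908 were called, against 3321 with only the groups compared and 4423 to 8861 without 1 array, the lowest 2 being 4423 and 4685 without a luminal shROR2 array. In shLUC, with 9183 called, leaving out 1 array gave 6806 to 11055.

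The replicate numbers did not pair the samples: the deviations of same-numbered samples correlated at -0.0325 to 0.0373. With the replicate block 32 probes were called in the basal hairpin comparison and 0 in the luminal one (1901 at an unadjusted p under 0.05), and the block changed no call of a Serpina3 probe.

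Serpina3n, A_55_P2104975, Serpina3m and Serpina3c in luminal cells, and Ror2 on nearly every array, were too dim for a level, so a bound or no fold is given for them. The luminal comparison rests on 2 against 3 arrays.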

Other observations

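One probe, A_51_P326191, carries an accession that the gene table does not list, so its gene is not named here, and it was chosen after its values were seen. Whether it measures Serpina3g, the listed member without a matched probe, was not settled by the files used here. Its luminal signals were 26.8, 27.0 and 15.3 with shLUC, and 199 and 129 with shROR2. Its basal signals were 24.7, 20.8 and 35.1 with shLUC, and 22.2, 82.4 and 28.6 with shROR2. It was well above background on all 11 arrays. The luminal shROR2 arrays were the highest of all, and 1 basal shROR2 array lay above the other basal arrays. The luminal hairpin difference was 2.81 ± 0.54, 2.79 on slide 1 and 2.68 on slide 2, and is a description. The basal minus luminal difference was -2.05 ± 0.54 in shROR2, on the same 2 luminal arrays, and 0.17 ± 0.49 in shLUC, also given as a description. The basal hairpin difference was 0.59 ± 0.49, -0.20 on slide 1 and 2.17 on slide 2. Its profile differed from that of Serpina3f (A_55_P2142226) by a root mean square of 2.30.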
